A study of Columba livia with 4 samples.

Results

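SOX10 peaks that lay far from acetylated chromatin were described in primary melanocytes of the pigeon (Columba livia), the pigment-producing cells of skin and feather. SOX10 is a transcription factor of the SOX family that binds DNA through a high-mobility-group domain and is required in the neural crest for its pigment and glial descendants, where it acts on pigment genes together with the melanocyte factor MITF. H3K27ac, acetylation of lysine 27 of histone H3, marks active promoters and enhancers. H3K27me3, trimethylation of the same lysine, is laid down by Polycomb repressive complexes and is found at silenced developmental genes. A histone tail carries one or the other of these modifications on that lysine, not both.

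The series holds 4 samples from wild-type cells: chromatin immunoprecipitated for SOX10, for H3K27me3 and for H3K27ac, and an input sample taken before immunoprecipitation. All had the same medium with serum, the phorbol ester TPA at 85 nM, cholera toxin at 40 ng/mL and endothelin-3 at 10 ng/mL, so every statement is about cultured cells under these mitogens. The labels name neither the birds nor the number of cultures. The peak lists of the 3 immunoprecipitated libraries were analysed, with 1 library per target, so no value has a replicate error and no test across samples was possible. Intervals of shares, densities and fragment counts given below are exact 95% intervals of counts and cover only the error of counting. Those of medians are rank intervals over peaks, and those of differences between medians are approximate and built from them. Peaks close to each other are not independent observations.

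A SOX10 peak was taken as far from acetylated chromatin when it shared no base with an H3K27ac or H3K27me3 region and its summit, the base of highest signal, lay more than 10 kb from the nearest H3K27ac region. Scaffolds whose highest peak end in any list was under 1 Mb were left out, which kept 127 scaffolds. Of the 5785 SOX10 peaks on these scaffolds, 1309 were far (22.6%, 21.6 to 23.7%), out of 6579 in the whole list. The comparison was with the 3234 SOX10 peaks on the same scaffolds that shared at least 1 base with an H3K27ac region, of which 2937 had the summit inside the region. A further 1185 peaks lay outside both marks but within 10 kb of H3K27ac, and 57 lay in H3K27me3 alone. The far peaks were thus chosen by measured values, the positions of their summits relative to the regions of both marks, so that their distance from H3K27ac and their lack of overlap are given as a description. SOX10 strength did not enter the choice directly. Spacing entered it in part, since the rule keeps SOX10 summits inside H3K27ac out of the 10 kb around a far summit. Peak width also entered it in part, since a wider peak is more likely to share a base with a mark. Comparisons of width are thus not independent of the rule. Width rises with fragments, as given below, so comparisons of strength are not fully independent of it either.

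Distances around the limit were continuous. The far peak nearest to it lay 10008 bp from H3K27ac, with a fold enrichment over local background of 2.74, and the next 4 lay at 10022 to 10091 bp with folds of 2.18 to 3.94. The 5 peaks just outside the limit lay at 9789 to 10000 bp and had folds of 2.69 to 4.24. Summits of far peaks lay a median of 39.0 kb from the nearest H3K27ac region (interquartile range 19.6 to 81.7 kb), and the farthest at 879 kb. That peak, at 165356 to 165486 of scaffold AKCR02000080.1, had 21 fragments at its summit and a fold of 3.77. The other 4 of the 5 most remote peaks lay 495 to 666 kb from H3K27ac and were also small, with 20 to 26 fragments and widths of 133 to 158 bp.

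Far peaks were rare per base of the genome that they could occupy. Bases more than 10 kb from H3K27ac and outside H3K27me3 came to 710 Mb, 69.9% of the scaffolds' span, and held 1.84 far peaks per Mb (1.74 to 1.95). The 34.2 Mb under H3K27ac held 94.5 overlapping SOX10 peaks per Mb (91.2 to 97.8), so that the density of far peaks was 0.0195 times that in acetylated chromatin. The density did not fall evenly with distance. Outside H3K27me3, SOX10 summits numbered 86.6 per Mb inside H3K27ac, 23.4 at up to 1 kb from it, 2.75 at 1 to 2 kb, 2.46 at 2 to 5 kb and 2.46 at 5 to 10 kb. Farther out they numbered 2.68 per Mb at 10 to 20 kb (2.40 to 2.98), 2.19 at 20 to 50 kb (1.99 to 2.40), 1.87 at 50 to 100 kb, 1.42 at 100 to 200 kb and 0.701 beyond 200 kb (0.553 to 0.878). From 1 to 20 kb the counting intervals overlapped. Runs of unknown or unmappable bases could not be masked, and their part in these densities was not tested.

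**Figure D1:**
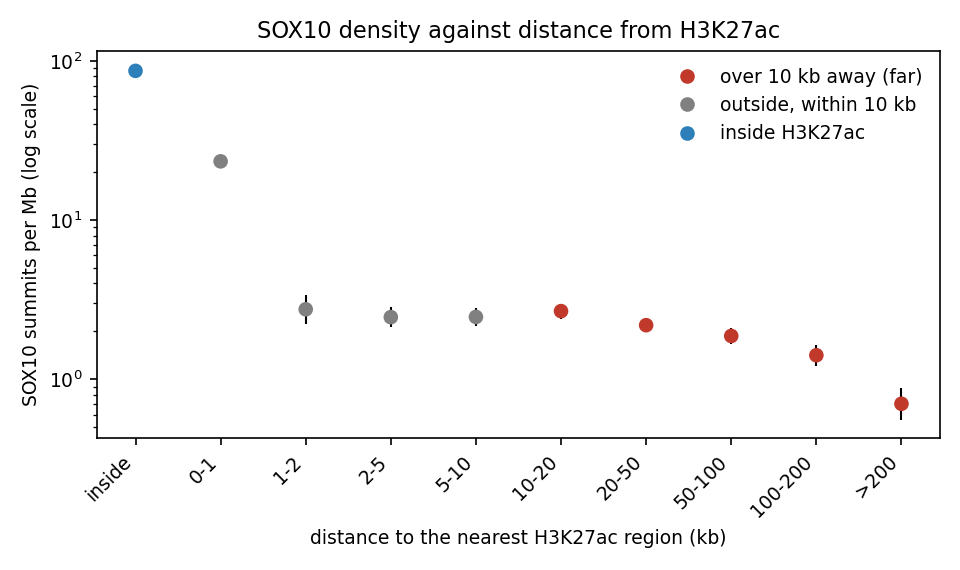
SOX10 summits per Mb (log scale) against distance to the nearest H3K27ac region, outside H3K27me3, in classes of distance from inside to beyond 200 kb; bars are exact 95% Poisson intervals of the counts. Density was 86.6 per Mb inside H3K27ac, lay between 2.46 and 2.75 per Mb from 1 to 20 kb, and was 0.701 per Mb beyond 200 kb.

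The stretches free of H3K27ac in which far peaks lay were mostly long. A gap ran between neighbouring acetylated regions or, for 17 far peaks, between such a region and a scaffold end. Far peaks lay in 1039 of the 8165 gaps of over 20 kb (12.7%), and the median gap around a far peak was 176 kb. Of these gaps 845 held 1 far peak, 194 held at least 2 and 4 held 5, the most in any gap. A far peak was present in 3.12% of gaps of 20 to 50 kb (2.59 to 3.73%), in 22.1% of gaps of 100 to 200 kb and in 45.2% of gaps over 500 kb (38.9 to 51.6%). Per Mb at more than 10 kb from H3K27ac and outside H3K27me3, in contrast, the order was reversed: gaps of 20 to 50 kb held 2.85 far peaks per Mb (2.37 to 3.40), those of 50 to 100 kb 2.48, those of 100 to 200 kb 2.26, those of 200 to 500 kb 1.87 and those over 500 kb 0.934 (0.803 to 1.08). Among the 4 gaps with 5 far peaks, 3 were 383 to 929.5 kb long. The other was only 94.0 kb long, at 3031818 to 3125822 of AKCR02000051.1, with 5.32 far peaks per 100 kb; it was picked after its value was seen.

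Acetylated regions that happened to be the nearest to a far peak were alike in fold and somewhat narrower by median, without intervals for these medians. The 1097 such regions had a median width of 663 bp and a median fold of 3.84, against 739 bp and 3.81 for all 26739 H3K27ac regions on these scaffolds. A SOX10 peak overlapped 12.9% of them (11.01 to 15.1%), against 10.6% of all regions (10.3 to 11.02%).

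In strength, far peaks differed little from peaks in acetylated chromatin once local background was alike. The fragments at each summit and the local background were recovered from the fold and p of the peak, as set out in the processing notes. Without regard to background, far summits held a median of 30 fragments (interquartile range 24 to 39, lowest 13, highest 113) and summits in H3K27ac held 34 (27 to 43, lowest 14, highest 330). Local background had a median of 7.98 fragments at far peaks, against 9.98 at peaks in H3K27ac. A count of 30 fragments has an exact Poisson interval of 20.2 to 42.8, so a single peak is known only loosely. Far peaks also lacked the extremes of background: the highest value was 23.0 fragments at a far peak, against 240 at a peak in H3K27ac. Background over 20 fragments was found at 0.458% of far peaks and 1.55% of peaks in H3K27ac, against 1.19% of all SOX10 peaks on these scaffolds. At the other end, 2.98% of far peaks and 0.897% of peaks in H3K27ac had the lowest background in the list, 3.77 fragments, against 1.59% of all.

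In 10 strata of local background with about equal numbers of SOX10 peaks, the median number of fragments at far peaks was higher in 3, lower in 2 and equal in 5. Weighted by the number of far peaks, the difference between medians was -0.25 fragments, with an approximate interval of 0.609 either way that was built from rank intervals of the medians. In the lowest stratum, from 3.77 to 5.02 fragments of background, far peaks had a median of 20 fragments and peaks in H3K27ac 22. In the second lowest both medians were 24, and in the highest both were 47. The largest differences in either direction were in the sixth stratum, with 36 fragments at far peaks and 34 at peaks in H3K27ac, and in the ninth, with 38 at far peaks and 43 at peaks in H3K27ac. Of the 1309 far peaks, 43.6% lay above the H3K27ac median of their stratum (40.9 to 46.4%), 49.0% lay below it and the others were tied with it. A difference of 1 fragment or more over all strata lay outside the approximate interval, but not under every choice. Intervals that reached 1 fragment were 0.249 ± 1.07 with far meaning over 50 kb and 0.314 ± 0.874 with matching by whole steps of background. With 5 strata the value was -0.348 ± 0.662, which also reached a difference of 1 fragment. Matched the other way, in 10 strata of summit fragments, local background was lower at far peaks in all 10. The weighted difference was -0.82 fragments of background, with an approximate interval of 0.204 either way, and 62.4% of far peaks lay below the H3K27ac median. The cutoff on q admits a peak at higher background only with more fragments, and its part in both comparisons was not tested.

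The deposited q-values also differed little, and so did the folds at like background. Without regard to background, the median fold was higher at far peaks, at 3.44 (interquartile range 2.95 to 4.12), than at peaks in H3K27ac, at 3.28 (2.79 to 3.94). The rank intervals of these medians, 3.41 to 3.51 for far peaks and 3.25 to 3.32 for peaks in H3K27ac, did not overlap. At like background the weighted difference in fold was 0.0016, with an approximate interval of 0.0679 either way. A fold of at least 5 was found at 122 far peaks (9.32%, 7.80 to 11.03%) and at 7.85% of peaks in H3K27ac (6.95 to 8.84%), against 8.06% of all SOX10 peaks on these scaffolds. A -log10 q of at least 10 was reached by 19.2% of far peaks (17.1 to 21.4%) and by 21.1% of peaks in H3K27ac (19.7 to 22.6%), against 20.2% of all. These intervals overlap in both comparisons. At the top of the range, a fold of at least 7 was found at 17 far peaks (1.30%, 0.758 to 2.07%) and at 1.67% of peaks in H3K27ac (1.26 to 2.17%), against 1.31% of all. A -log10 q of at least 20 was reached by 4.81% of far peaks and 5.75% of peaks in H3K27ac, against 5.05% of all. Summit fragments were level over the distance from H3K27ac, while the median fold was slightly higher beyond 50 kb. Across far peaks, Spearman's rho between that distance and summit fragments was 0.024 (n = 1309, peaks of 1 library). The median fold was 3.41 at 10 to 20 kb, 3.39 at 20 to 50 kb, 3.59 at 50 to 100 kb, 3.61 at 100 to 200 kb and 3.56 beyond 200 kb. A fold of at least 5 was found at 7.16%, 5.75%, 12.9%, 14.7% and 13.2% of peaks in the same order, so that such peaks made up a larger share in each of the 3 classes beyond 50 kb than in either nearer class. These shares have no intervals, and the class beyond 200 kb held only 76 peaks, so the order of the classes is not firm. Nearness to H3K27me3 moved with this distance, as given below, and its part in these shares was not tested.

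Far peaks were narrower by median than peaks in H3K27ac, as were the other peaks outside both marks. The median width of far peaks was 191 bp (interquartile range 154 to 247, lowest 131, highest 753), against 207 bp (160 to 281, lowest 131, highest 902) for peaks in H3K27ac, and the rank intervals of the medians, 186 to 195 bp for far peaks and 203 to 211 bp for peaks in H3K27ac, did not overlap. The peaks outside both marks within 10 kb of H3K27ac had a median width of 187 bp (182 to 191), so that narrowness was not particular to far peaks. A width of 300 bp or more was found at 13.2% of far peaks (11.4 to 15.2%) and at 20.9% of peaks in H3K27ac (19.5 to 22.3%), against 17.1% of all SOX10 peaks on these scaffolds, and at 11.6% of those outside both marks within 10 kb of H3K27ac. The shortest width, 131 bp, was found at 8.79% of far peaks (7.31 to 10.5%) and at 5.44% of peaks in H3K27ac (4.69 to 6.28%), against 6.83% of all. Peak width rises with the number of fragments, with rho of 0.47 among far peaks and 0.49 among peaks in H3K27ac. In 10 strata of summit fragments the far peaks were narrower in 7 and wider in 3, with a weighted difference of -7.65 bp and an approximate interval of 5.39 bp either way. This did not hold under every choice. At like background the difference was -5.69 bp with an interval of 5.90 bp either way, which includes 0. At like fragments, the intervals also included 0 against peaks with the summit inside H3K27ac, at -4.80 bp and 5.47 bp either way, and for peaks over 50 kb from H3K27ac, at -6.71 bp and 8.09 bp either way. By stratum, the larger differences lay among peaks with more fragments. In the lowest stratum far peaks had a median width of 157.5 bp and peaks in H3K27ac 162 bp, and in the fifth the medians were 199 bp for far peaks and 189.5 bp for peaks in H3K27ac. In the eighth they were 206 bp for far peaks and 229 bp for peaks in H3K27ac, and in the highest, with at least 53 fragments, 311 bp for far peaks and 332 bp for peaks in H3K27ac. Among peaks with a -log10 q of at least 5, the difference in median width over all strengths was -26.5 bp, against -16 bp in the full list.

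**Figure D2:**
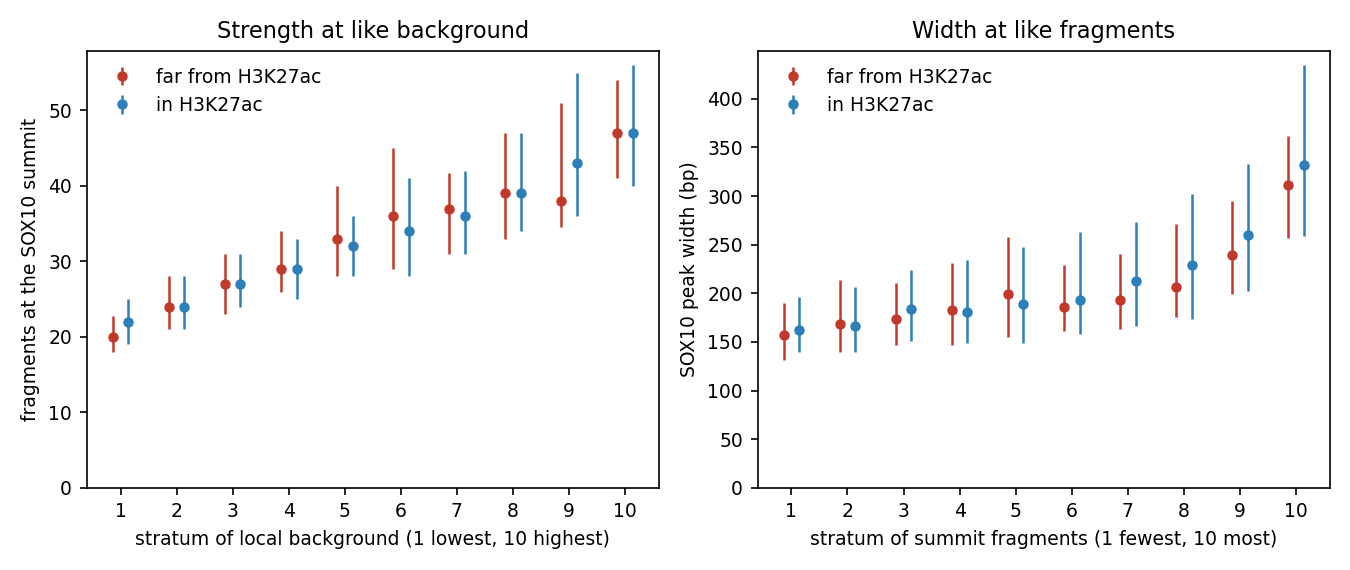
Left, fragments at the SOX10 summit in 10 strata of local background; right, SOX10 peak width in bp in 10 strata of summit fragments. Points are medians and bars interquartile ranges over peaks, red for far peaks and blue for peaks in H3K27ac; fragments at like background lie close together, and far peaks were narrower in 7 of 10 strata of fragments.

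Far peaks had fewer close SOX10 neighbours than peaks in H3K27ac. The nearest other SOX10 summit of any kind lay a median of 64.6 kb away (interquartile range 25.4 to 147 kb) for far peaks and 21.1 kb away (4.15 to 66.3 kb) for peaks in H3K27ac. Another summit lay within 10 kb of 122 far peaks (9.32%, 7.80 to 11.03%) and of 35.7% of peaks in H3K27ac (34.1 to 37.4%), against 27% of all SOX10 peaks on these scaffolds. Within 1 kb the shares were 2.60% of far peaks (1.81 to 3.61%) and 10.5% of peaks in H3K27ac (9.51 to 11.7%), against 6.97% of all. Within 50 kb they were 41.6% for far peaks and 69.1% for peaks in H3K27ac, against 60.7% of all, and within 100 kb 63.8% for far peaks and 82.6% for peaks in H3K27ac, against 76.7% of all. Of the peaks outside both marks within 10 kb of H3K27ac, 2.11% (1.37 to 3.10%) had another summit within 1 kb. Few neighbours within 1 kb were thus not particular to far peaks. For the same class the share was 23.6% within 10 kb, 60% within 50 kb and 75.5% within 100 kb. The rule itself keeps summits inside H3K27ac out of the 10 kb around a far summit, so the smaller share within 10 kb follows partly from the rule. Beyond 10 kb the rule sets no such bound, but the shares within 50 and 100 kb include these 10 kb. Far minus in H3K27ac, the share differed by -26.4 points within 10 kb and by -27.6 points within 50 kb, a similar gap. The nearest SOX10 neighbour of a far peak was itself far in 38.1% of cases (35.5 to 40.8%), in H3K27ac in 40.0%, outside both marks within 10 kb of H3K27ac in 20.4% and in H3K27me3 alone in 1.45%. For a peak in H3K27ac the nearest neighbour was far in 11.7% of cases and in H3K27ac in 69.7% (68.0 to 71.2%).

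**Figure D3:**
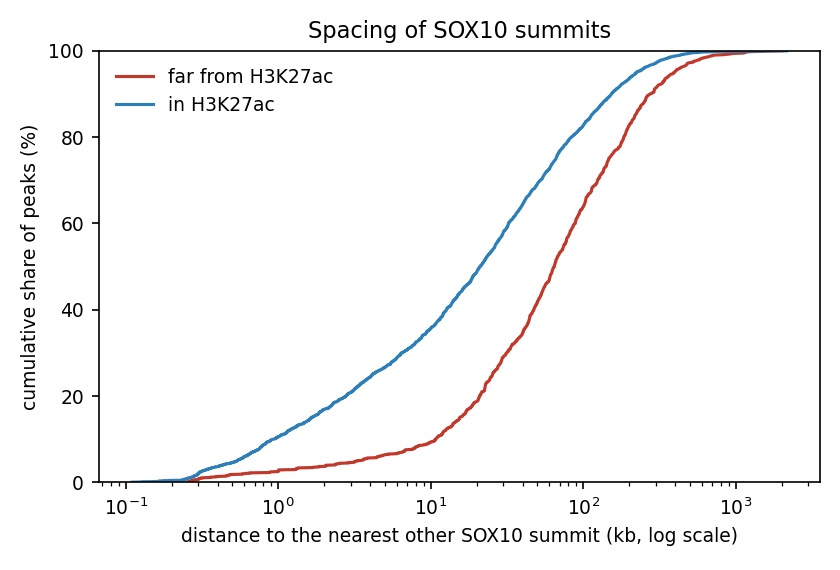
Cumulative share of SOX10 peaks (%) against the distance from a summit to the nearest other SOX10 summit of any class (kb, log scale), red for far peaks and blue for peaks in H3K27ac. The curve of far peaks lies to the right, with 9.32% of far peaks and 35.7% of peaks in H3K27ac having a neighbour within 10 kb.

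Groups of far peaks never exceeded a pair at short range. Chaining far summits over gaps of up to 10 kb gave 57 pairs, which held 114 far peaks (8.71%, 7.24 to 10.4%), and 0 groups of 3 or more. Peaks in H3K27ac, chained in the same way, gave 438 groups with 31.5% of the peaks (29.9 to 33.1%), of which 97 had at least 3 peaks and the largest 9. With gaps of up to 50 kb, 21.8% of far peaks fell into groups, the largest of 5, against 57.5% of peaks in H3K27ac and a largest group of 11. The rarity of far peaks per Mb has to be read beside these counts. A far peak had on average 0.0871 other far peaks within 10 kb on either side, while the average density of far peaks gives 0.0369 for a window of that size, a ratio of 2.36. The ratio was 7.05 within 1 kb, 4.97 within 2 kb and 1.47 within 50 kb. These ratios have no intervals, and those within 1 and 2 kb rest on only 17 and 24 pairs. Of these pairs 12 were at most 500 bp apart, the upper end of the sheared length. A far peak thus had more far peaks close by than the average density gives, although few far peaks were in pairs.

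The spacing within pairs ran from 253 bp to 9868 bp with a median of 2515 bp, and 12 pairs were at most 500 bp apart. The pair with most fragments lay at 5080483 to 5089165 of AKCR02000042.1, with 64 and 72 fragments at summits 8355 bp apart. The second, at 1114085 to 1122445 of AKCR02000062.1, joined one of the strongest far peaks, with 80 fragments, to one with 31 fragments at 7849 bp. The other 3 of the 5 largest pairs held 107, 94 and 92 fragments in all, at summits 5990, 9868 and 4466 bp apart. In 4 of these 5 pairs 1 summit had at least 1.5 times the fragments of the other.

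Beside H3K27me3, far peaks were several times denser than elsewhere. The rule bars overlap with H3K27me3 but sets no distance from it. An H3K27me3 region lay within 2 kb of 339 far peaks (25.9%, 23.5 to 28.4%), against 4.45% (3.76 to 5.22%) of the 3192 peaks in H3K27ac that were not in H3K27me3 and 10.1% of all SOX10 peaks outside H3K27me3. Within 10 kb the shares were 44.7% (42.0 to 47.4%) of far peaks and 14.7% (13.5 to 15.9%) of these peaks in H3K27ac, against 23.3% of all. Within 1 kb they were 13.1% of far peaks and 2.13% of peaks in H3K27ac, against 4.98% of all, and within 50 kb 72.2% of far peaks and 51.4% of peaks in H3K27ac, against 57.6% of all. Of the peaks outside both marks within 10 kb of H3K27ac, 7.76% (6.30 to 9.44%) had H3K27me3 within 2 kb and 22.8% within 10 kb. With marks of -log10 q of at least 3 alone, which leaves fewer regions and shifts the rule, the excess of far peaks at 10 kb was 7.60 percentage points in place of 30.03. The median distance was 14.5 kb for far peaks and 47.6 kb for all peaks in H3K27ac. Much of the territory far from H3K27ac is also far from H3K27me3: only 7.84% of its bases outside H3K27me3 lay within 2 kb of such a region and 23.0% within 10 kb. The share of far peaks within 2 kb was thus 3.30 times the share of bases, and within 10 kb it was 1.94 times. Bases under H3K27ac have their own distances to H3K27me3, and the differences in points between the classes were not corrected for them.

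The excess was at a set-off from the edge of the H3K27me3 region. In territory far from H3K27ac, SOX10 summits numbered 1.63 per Mb inside H3K27me3 (1.13 to 2.28, 34 summits that are not far peaks by the rule), 2.04 at up to 0.25 kb from it (1.28 to 3.09) and 4.98 at 0.25 to 0.5 kb (3.61 to 6.71). The density was highest at 0.5 to 1 kb, with 8.01 per Mb (6.60 to 9.64), and stayed at 7.53 per Mb at 1 to 2 kb (6.43 to 8.76). It was 2.88 per Mb at 2 to 5 kb, 1.78 at 5 to 10 kb, 1.57 at 10 to 50 kb and 1.15 beyond 50 kb (1.03 to 1.27). These densities count every SOX10 summit in the territory, so that of the 22 summits at up to 0.25 kb, 16 belonged to far peaks and the others to peaks that the rule leaves out. At 0.5 to 2 kb there were 280 far peaks in 36.3 Mb, or 7.71 per Mb (6.84 to 8.67), against 724 far peaks in 547 Mb at more than 10 kb, or 1.32 per Mb (1.23 to 1.42), a ratio of 5.83. The ratio was 3.51 with marks of -log10 q of at least 3 alone and 9.50 for peaks over 50 kb from H3K27ac. In bases under H3K27ac the same ratio was 1.17, with 101 summits per Mb at 0.5 to 2 kb (82.0 to 124) and 86.4 at more than 10 kb (83.0 to 89.9), and the counting intervals overlapped. Under H3K27ac the density was 38.0 per Mb inside H3K27me3 (25.5 to 54.6). It was 58.7 at up to 0.25 kb (35.9 to 90.7) and 77.9 at 0.25 to 0.5 kb (44.5 to 126). In both territories the density inside H3K27me3 was thus below that at 0.5 to 2 kb. Compared with more than 10 kb away the territories differed. Under H3K27ac the density inside was lower, at 38.0 against 86.4 per Mb. In far territory it was not, at 1.63 against 1.32 per Mb, with overlapping counting intervals. The classes of distance were chosen after the pattern was seen, and the difference between the ratios was not tested.

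**Figure D4:**
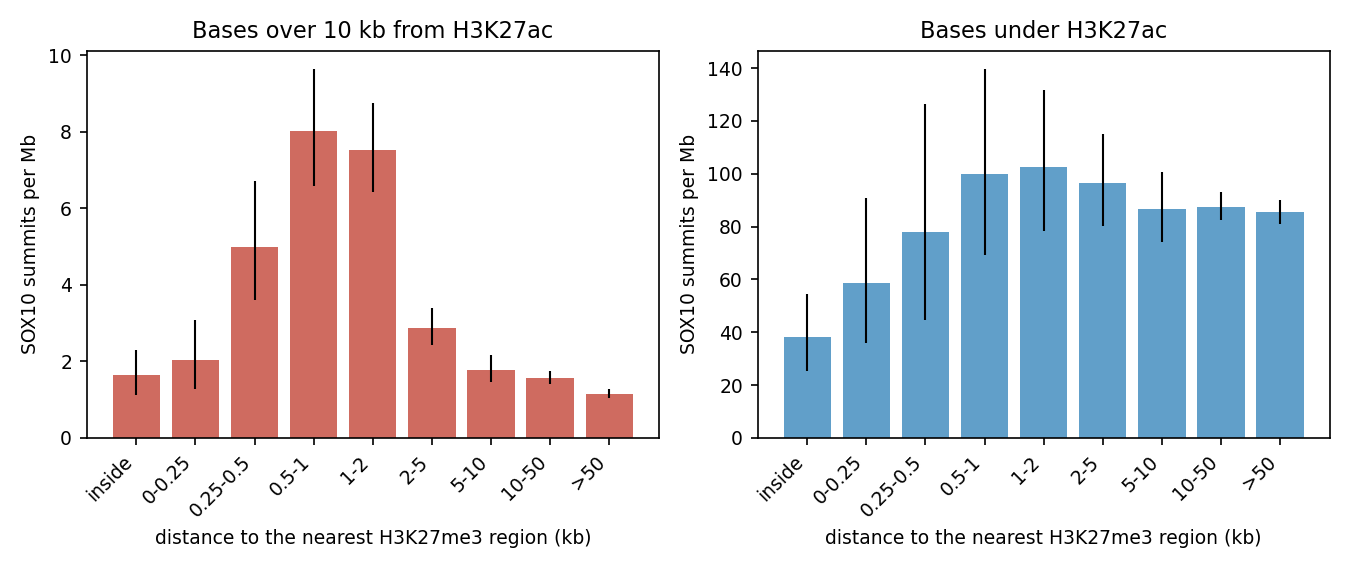
SOX10 summits per Mb by distance to the nearest H3K27me3 region (kb), left over bases more than 10 kb from H3K27ac and right over bases under H3K27ac; bars from 0, with exact 95% Poisson intervals of the counts, and separate vertical scales. On the left the density was 8.01 per Mb at 0.5 to 1 kb and 1.15 beyond 50 kb, and on the right 99.9 and 85.5 per Mb.

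The ratio was larger the farther the site lay from acetylated chromatin. At 10 to 20 kb from H3K27ac, far peaks numbered 8.13 per Mb at 0.5 to 2 kb from H3K27me3 and 2.29 per Mb at more than 10 kb from it, a ratio of 3.55. At 20 to 50 kb these densities were 7.05 and 1.66, a ratio of 4.24, and at 50 to 100 kb 8.17 and 1.17, a ratio of 6.998. Beyond 100 kb they were 7.83 and 0.665, a ratio of 11.8. The density beside H3K27me3 was thus nearly level, at 7.05 to 8.17 per Mb, while the density away from it was lower at each step. Both rest on counts of 47 to 85 peaks beside H3K27me3 and 126 to 243 away from it in each class. Runs of unknown or unmappable bases were not masked here either, and their part in the ratios beside H3K27me3 was not tested. Background moved with the pattern: far peaks at 0.5 to 1 kb from H3K27me3 had a median local background of 9.61 fragments, against 7.98 beyond 50 kb. Among peaks at or under the median background of all SOX10 peaks the ratio was 4.50, and among those over it 8.55. Both ratios use the same territory, which could not be divided by background, and the part of background in the ratio was not tested.

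Part of these sites lay between H3K27me3 regions. Of the 339 far peaks within 2 kb of H3K27me3, 121 (35.7%, 30.6 to 41.0%) had a region within 2 kb on both sides, which is 9.24% of all far peaks (7.73 to 10.9%). Of the peaks in H3K27ac outside H3K27me3, 0.595% had this (0.359 to 0.928%), against 2.83% of all SOX10 peaks outside H3K27me3. Of the peaks outside both marks within 10 kb of H3K27ac, 1.77% had it (1.10 to 2.70%). No share of bases with regions on both sides was taken, so a preference for such sites beyond nearness to H3K27me3 was not tested. Within 5 kb on both sides the shares were 18.0% of far peaks and 1.69% of peaks in H3K27ac, against 6.03% of all. The edges of the regions flanking such a far summit were 462 to 3807 bp apart, with a median of 1957 bp. When H3K27me3 regions were merged over gaps of up to 5 kb, 191 far peaks (14.6%) lay inside a merged domain, 86 of them in a domain of at least 20 kb. The like shares of all SOX10 peaks and of bases were not taken, so no excess can be read from these counts. Of the regions nearest to the 339 peaks, 27.1% belonged to a domain of at least 20 kb, against 23.1% of all H3K27me3 regions. For the 121 peaks with regions on both sides it was 49.6%. These 121 were chosen for close regions on both sides, which the merging always joins. Their share is thus partly set by the choice, and the 339 include them. The H3K27me3 regions nearest to the 339 peaks were of ordinary strength, with a median fold of 3.18 and a median width of 566 bp, against 3.19 and 473 bp for all 28556 regions on these scaffolds. A -log10 q of at least 3 was found for 18.6% of them and for 23.3% of all. Leaving out the territory within 10 kb of domains of 20 kb or more, 211 far peaks still lay 0.5 to 2 kb from a region, and the ratio was 5.00.

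Far peaks beside H3K27me3 were stronger than those away from it. Within 2 kb, summits held a median of 34 fragments (rank interval 32 to 36) over a background of 8.98, and at more than 10 kb they held 29 (28 to 30) over 7.85. In 5 strata of background the median was higher beside H3K27me3 in 4 and equal in 1, with a weighted difference of 4.31 fragments and an approximate interval of 1.73 either way. Peaks within 2 kb were also wider, with medians of 214 bp (201 to 227) and, at more than 10 kb, 182 bp (177 to 187). A fold of at least 5 was found at 52 of 339 peaks within 2 kb (15.3%, 11.7 to 19.6%), at 12.2% of the 246 at 2 to 10 kb and at 40 of 724 at more than 10 kb (5.52%, 3.98 to 7.45%), against the 8.06% of all SOX10 peaks given above. With regions on both sides within 2 kb, the share was 22 of 121 (18.2%, 11.8 to 26.2%). Far peaks within 2 kb of H3K27me3 also lay farther from H3K27ac, at a median of 50458 bp, against 32518.5 bp for those at more than 10 kb from H3K27me3, and the part of either distance in the strength was not tested.

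Read the other way, the share of far peaks with H3K27me3 within 2 kb was 22.8% at folds under 3, 22.9% at 3 to 4, 29.0% at 4 to 5, 41.9% at 5 to 7 (32.3 to 51.9%) and 47.1% at 7 or more (8 of 17, 23.0 to 72.2%). For peaks in H3K27ac outside H3K27me3 the same shares were 3.27%, 5.00%, 5.39%, 4.04% (1.76 to 7.81%) and 7.69% (4 of 52). Median background did not follow the fold evenly, with 10.98 fragments at far peaks of a fold under 3, 6.67 at 4 to 5 and 7.98 at 7 or more.

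The 15 far peaks of highest fold ran from 7.12 to 11.9, with 45 to 113 fragments and widths of 211 to 753 bp. The strongest lay at 9274051 to 9274436 of AKCR02000019.1, with a fold of 11.9 and 106 fragments (86.8 to 128) over a background of 7.99. Its summit was 14.2 kb from H3K27ac and 2755 bp from an H3K27me3 region. On the same scaffold, the peak at 4123096 to 4123450 had a fold of 10.4 and 113 fragments (93.1 to 136) and sat between H3K27me3 regions, 422 bp from the one on its left and 2822 bp from the one on its right. The third, at 4871975 to 4872185 of AKCR02000046.1, had a fold of 9.64 with only 45 fragments (32.8 to 60.2), at the lowest background. It lay just past the limit, at 10625 bp from H3K27ac.

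Of the 15, 6 lay within 1 kb of H3K27me3, 8 within 2 kb and 12 within 4 kb, and 3 had no H3K27me3 region within 30 kb. Of all 1309 far peaks, 13.1% lay within 1 kb, 25.9% within 2 kb and 36.7% (34.1 to 39.4%) within 5 kb. The share within 4 kb was not taken over all far peaks. Of the 15 strongest peaks in H3K27ac outside H3K27me3, 2 lay within 2 kb of H3K27me3 and 4 within 4 kb. H3K27ac was more than 100 kb away from 4 of the 15. The first of these, at 2328118 to 2328401 of AKCR02000081.1, had a fold of 8.01 and 79 fragments, 172 kb from H3K27ac, with H3K27me3 at 617 bp on the left and 1127 bp on the right. The second, at 1114085 to 1114468 of AKCR02000062.1, had a fold of 7.98 and 80 fragments, with H3K27me3 at 645 and 681 bp. The third, at 30586482 to 30586710 of AKCR02000002.1, had a fold of 7.73 and 53 fragments, with H3K27me3 at 1029 and 451 bp. The fourth, at 544645 to 544940 of AKCR02000103.1, had a fold of 7.23 and 64 fragments, with H3K27me3 at 2726 and 5443 bp. Each of these 4 thus had H3K27me3 on both sides within 6 kb, a limit picked after the values were seen. Over all 15, 6 had H3K27me3 within 5 kb on both sides, against 18.0% of all far peaks. Within 10 kb on both sides the share of all far peaks was 23.8%.

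**Figure D5:**
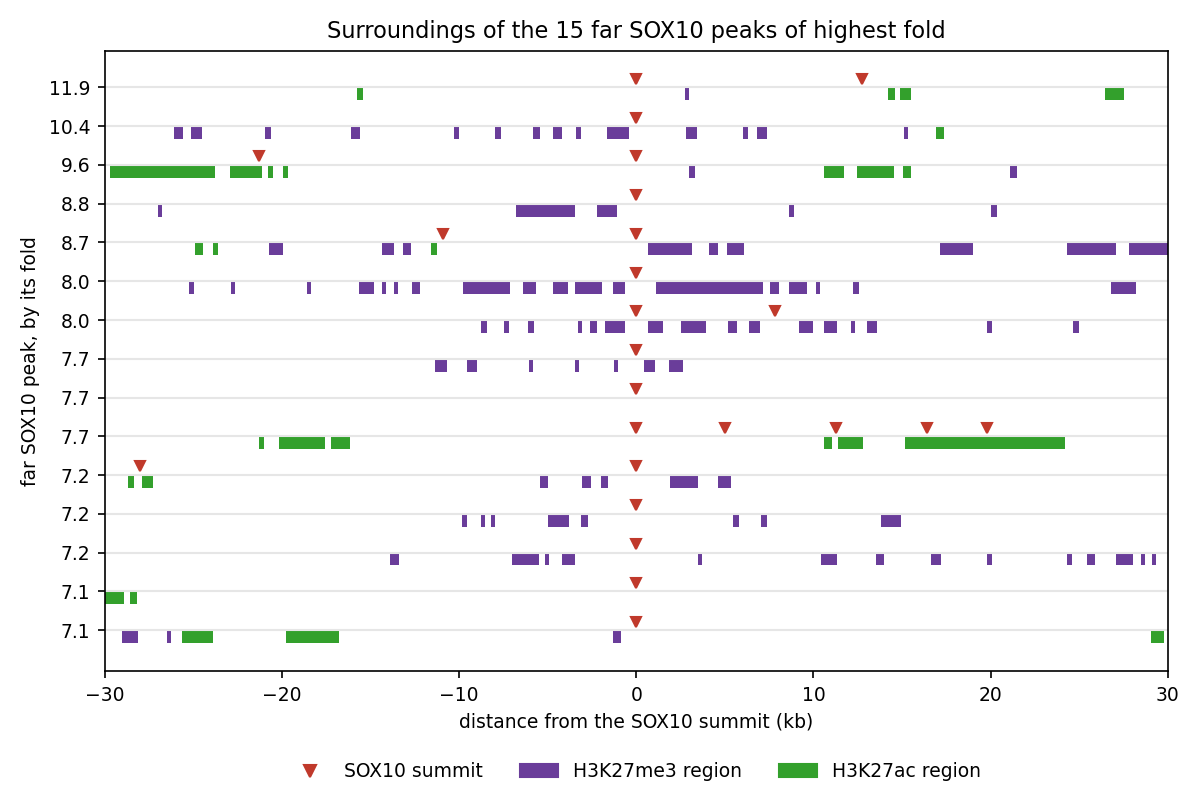
The 15 far SOX10 peaks of highest fold, from the strongest at the top, with SOX10 summits (red), H3K27me3 regions (purple) and H3K27ac regions (green) drawn to scale within 30 kb of each summit; the horizontal axis is distance from the summit in kb and the vertical axis gives the fold. Of the 15, 12 have H3K27me3 within 4 kb and 3 have none in the window, while H3K27ac is absent within 10 kb by the rule and lies within 30 kb of 8. Of all far peaks, 36.7% have H3K27me3 within 5 kb.

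Strength by other measures picked partly the same peaks. Of the 5 far peaks with most fragments, 3 were among the 15 of highest fold. The other 2 were a peak at 1661849 to 1662144 of AKCR02000011.1, with 113 fragments over a background of 19.96, 56.2 kb from H3K27me3, and a peak at 2480663 to 2480974 of AKCR02000009.1, with 98 fragments over 15.0. The widest far peak, of 753 bp at 9969844 to 9970596 of AKCR02000018.1, had 93 fragments and lay between H3K27me3 regions at 1587 and 1934 bp. The next 4 were 528 to 569 bp wide, with 37 to 63 fragments. Far peaks nearest to H3K27me3 lay 53 to 131 bp from it with the summit and had 22 to 45 fragments. The closest, at 909683 to 909838 of AKCR02000122.1, lay between regions at 53 and 492 bp.

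Far peaks were spread over 117 of the 127 scaffolds. On the 31 scaffolds with at least 5 Mb of territory far from H3K27ac and outside H3K27me3, which held 957 of the far peaks, densities lay between 1.27 and 3.55 per Mb (median 1.86). The highest value was that of AKCR02000019.1, with 28 far peaks in 7.88 Mb. Across these scaffolds the rank correlation of this density was 0.59 with the share of the scaffold under H3K27me3 and 0.45 with that under H3K27ac (n = 31, all from the same 3 libraries). On the scaffold of the longest span, AKCR02000001.1, 121 far peaks gave 1.65 per Mb and made up 28.3% of its SOX10 peaks.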

How the data were processed

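Per the submitters' processing notes, bcl2fastq 2.20, Bowtie2 2.2.9, SAMtools 1.16 and MACS3 3.0.0 were used. Not given in the sources used here are their settings, the control library and the build. Per the labels' protocols, chromatin was fixed in 1% formaldehyde for 15 min, sheared to 300 to 500 bp on average and read as single 75 nt ends. The authors deposited 1 peak list per library, with a score (a whole number cut from 10 times −log10 q, not used), a fold enrichment ratio over local background, and −log10 p-values and q-values. All folds and q-values printed here are theirs. The lists end at a q-value of 0.0462 (SOX10), 0.0968 (H3K27ac) or 0.0965 (H3K27me3).

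Read totals of the libraries are not analysed here. Fragments and local background at each SOX10 summit were solved from fold = (fragments + 1) / (background + 1) and a Poisson p: for all 6579 peaks 1 whole number gave the deposited −log10 p to within 0.001, and its closest rival was off by 0.00399 or more. Background lay at whole steps of 0.998 fragments for 59.4% of far peaks and 62.4% of peaks in H3K27ac, so it carries counting error too.

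An overlap meant at least 1 base. Scaffold length was replaced by the highest peak end in any list. Shares have exact Clopper-Pearson and densities exact Poisson intervals, at 95%. Strata hold about equal numbers of all SOX10 peaks on the scaffolds used. Coordinates count from 1. Named regions are the 15 far peaks of highest fold, the 5 with most fragments, the 5 widest, the 5 farthest from H3K27ac, the 5 nearest to H3K27me3, the 5 largest clusters and the 5 peaks on either side of the 10 kb limit. The far peaks, the measures and the rule for named regions were chosen with earlier results of these data known. No genome or annotation of the scaffolds' assembly was used, so no gene, motif or sequence is given, and the planned look at SOX motifs and pigment genes was not run. Python 3.11.15, numpy 2.4.6, pandas 2.3.3, scipy 1.17.1 and matplotlib 3.10.9 were used, and the solving, overlap and stratum steps were tested on simulated data.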

Additional observations from a re-analysis of the deposited data

How the results depend on the processing

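Of 84 recalculations, 59 stayed within the counting or approximate interval of the reported value, or within 1.5 times the reported number of far peaks. Another 25 moved beyond these bounds and 0 reversed a difference larger than its interval. Fragments at like background stayed within the approximate interval in 11 of 11, from -0.44 to 0.31, with both signs. Width at like fragments did so in 9 of 9, from -12.0 to -4.80 bp. In 2 of these 9 the interval included 0, namely -4.80 ± 5.47 bp with the summit inside H3K27ac and -6.71 ± 8.09 bp with far meaning over 50 kb. The cause of the moves was not tested beyond what a setting itself fixes, such as fewer peaks. With far meaning over 5 kb, 26.6% of SOX10 peaks were far. With over 50 kb, 539 peaks (9.32%) were far, the density relative to H3K27ac was 0.0148, the excess of far peaks over peaks in H3K27ac with H3K27me3 within 10 kb was 38.0 points, and the density ratio beside H3K27me3 was 9.50. With a SOX10 −log10 q of at least 5, 738 peaks were far, the width difference was -26.5 bp, the shortfall in neighbours within 10 kb was -18.3 points, 4.07% of far peaks were in clusters, the H3K27me3 excess was 36.8 points and the ratio 7.72. With marks of −log10 q of at least 3, 28.8% were far, the H3K27me3 excess was 7.60 points and the ratio 3.51, the lowest of its 6 alternatives. On all scaffolds 21.1% were far, the relative density was 0.0212 and the H3K27me3 excess 24.0 points. On scaffolds of at least 10 Mb 25.04% were far, the neighbour shortfall was -23.8 points and the H3K27me3 excess 33.3 points. At a distance of 50 kb the H3K27me3 excess was 20.8 points, and with cluster gaps of 50 kb 21.8% were in clusters. The ratio beside H3K27me3 was 4.50 for peaks at or under the median background, over undivided territory, and 5.00 outside long domains. The ratio, its settings and matching by whole steps of background were chosen after seeing the data. No replicate could be left out. No paired analysis was possible because there was only 1 library per target. Depth limits the list: no far summit held fewer than 13 fragments, so weaker sites are outside the list, and acetylation under the caller's cutoff is not seen.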
